A study of Mus musculus with 2 samples.

Results

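The loci described here are 10 genes used to recognise macrophages and other leukocytes: Spi1, Irf8, Csf1r, Cx3cr1, Adgre1, Ptprc, Itgam, C1qa, Laptm5 and Cd68. They were taken by name from 21938 protein-coding genes of GENCODE release M21, and each was followed over its gene body plus 20 kb on either side, 975 kb in all on mm10. The data are DNase-seq of kidney tissue from female B6CASTF1/J mice, hybrids of the B6 and CAST strains, aged 36 days. DNase-seq maps stretches of chromatin that an enzyme can cut, as found at active promoters and enhancers. Both libraries, labelled biological replicates 1 and 2, belong to the same group, and there was no control. Separate numbers are given for the 2 females but a common donor entry, so the spread between the libraries may be partly technical.

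The kidney holds a network of resident macrophages between its tubules, which take up debris and immune complexes and help shape inflammation and repair. Their identity depends on PU.1, the ETS-family transcription factor encoded by Spi1, which binds purine-rich sites at macrophage enhancers and acts with partners such as IRF8, RUNX1 and C/EBP factors. CSF1R, the receptor for the growth factors CSF1 and IL-34, keeps these cells alive, and many myeloid promoters are poor in CpG and carry PU.1 sites. In whole tissue a site open in few cells and a site weakly open in many cells cannot be told apart.

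Peaks came in a stricter and a wider set for each library. In the stricter set each peak contained a position where the authors' false discovery rate was 0.001 or lower. For the wider set the limit was 0.05. Overlapping peaks of the 2 libraries were merged into a site, called shared when it held peaks of both. A distal site had its middle over 1 kb from every annotated start of any gene, and a weak site was seen in the wider set alone. Peak heights are the authors' values, whose scale is unknown, and they were used to describe and rank sites within a library, and pairs of heights below give replicate 1 first. The stricter set held 124504 peaks in replicate 1 and 68056 in replicate 2, and read totals were not given. Of all replicate 1 sites, 52.6% were also found in replicate 2. As a check of the tissue, 8 of 10 kidney epithelial genes had a promoter peak in both libraries, a promoter peak being one that overlapped the 1 kb on either side of any annotated start. Among them were Umod, the urinary protein of the thick ascending limb (5.39 and 4.38), and Lrp2, the endocytic receptor megalin (7.46 and 5.11).

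It was asked whether weak or distal sites carry a mark of macrophage regulation. Letters in the sequence alone do not show which ETS-family factor, if any, binds a site, or in which cells. Sequences are given first for the sites in or beside which lie letters that PU.1, or PU.1 with an IRF partner, can bind. Each is 200 bases of the RefSeq mouse genome GRCm38.p6 (mm10 coordinates, plus strand, 5′ to 3′) centred on the site. This reference is the C57BL/6J sequence, and the CAST alleles of these hybrids may differ from it. Capitals mark GAGGAAGT, or its reverse complement ACTTCCTC, in all but the C1qa site, where they mark the composite of GGAA and GAAA with any 2 bases between them. Sites can be narrower than 200 bases, so the letters may lie beside the site. Of 7 weak sites with the PU.1 letters in these bases, 5 are shown. In the Itgam site at 26.7 kb and the Cx3cr1 site the letters are not wholly inside the site.
Itgam, 13.6 kb upstream of the gene, chr7:128048901-128049100: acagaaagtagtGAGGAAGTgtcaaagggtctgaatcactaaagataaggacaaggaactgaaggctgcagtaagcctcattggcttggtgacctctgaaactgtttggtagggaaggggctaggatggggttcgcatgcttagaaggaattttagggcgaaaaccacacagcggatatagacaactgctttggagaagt
Itgam, intron, 5.43 kb into the gene, chr7:128067969-128068168: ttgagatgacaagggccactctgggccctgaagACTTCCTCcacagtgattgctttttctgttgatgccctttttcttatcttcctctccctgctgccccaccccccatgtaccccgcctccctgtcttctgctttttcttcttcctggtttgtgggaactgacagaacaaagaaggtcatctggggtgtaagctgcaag
Itgam, intron, 26.7 kb into the gene, chr7:128089278-128089477: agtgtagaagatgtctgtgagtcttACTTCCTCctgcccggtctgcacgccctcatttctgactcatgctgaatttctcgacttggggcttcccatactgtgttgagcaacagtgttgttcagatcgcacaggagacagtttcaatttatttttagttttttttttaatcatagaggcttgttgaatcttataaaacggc
Cx3cr1, intron, 10.9 kb into the gene, chr9:120058887-120059086: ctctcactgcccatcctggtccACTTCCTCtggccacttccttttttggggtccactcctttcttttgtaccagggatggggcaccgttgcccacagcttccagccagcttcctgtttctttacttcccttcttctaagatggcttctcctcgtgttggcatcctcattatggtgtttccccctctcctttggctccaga
Ptprc, 16.5 kb upstream of the gene, at the start of Gm28556, chr1:138192086-138192285: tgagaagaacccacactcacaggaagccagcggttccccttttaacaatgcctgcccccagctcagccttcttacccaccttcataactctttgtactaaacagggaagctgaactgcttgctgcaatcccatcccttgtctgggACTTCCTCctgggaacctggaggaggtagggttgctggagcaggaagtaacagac

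From the stricter set, 1 shared site and 1 site of replicate 1 alone in the Irf8 window held the PU.1 letters. In the C1qa window the composite lay outside 1 site of replicate 1 alone, within the 200 bases around it.
Irf8, intron, 14.4 kb into the gene, both libraries, chr8:120750671-120750870: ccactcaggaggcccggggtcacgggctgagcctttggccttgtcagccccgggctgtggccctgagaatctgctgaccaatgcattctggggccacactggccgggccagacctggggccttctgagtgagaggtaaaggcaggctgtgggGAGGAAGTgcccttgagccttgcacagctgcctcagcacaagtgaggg
Irf8, 27.1 kb past the start and outside the gene, replicate 1 alone, chr8:120763351-120763550: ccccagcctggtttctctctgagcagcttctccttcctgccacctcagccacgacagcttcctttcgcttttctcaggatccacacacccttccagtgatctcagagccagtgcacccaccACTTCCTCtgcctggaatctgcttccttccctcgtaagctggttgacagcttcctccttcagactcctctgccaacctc
C1qa, 21.6 kb past the start and outside the gene, replicate 1 alone, chr4:136877076-136877275: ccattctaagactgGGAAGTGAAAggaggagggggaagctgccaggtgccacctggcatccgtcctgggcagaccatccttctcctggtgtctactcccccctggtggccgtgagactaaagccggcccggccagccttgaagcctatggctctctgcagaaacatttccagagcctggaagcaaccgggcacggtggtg

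The next set shows shared sites in or near Spi1, Irf8 and Laptm5 over their full width. Capitals here mark footprints, short protected stretches that a bound protein can leave, where those of the 2 libraries overlapped by at least 50% of the shorter.
Spi1, promoter site in an intron, chr2:91083034-91083128: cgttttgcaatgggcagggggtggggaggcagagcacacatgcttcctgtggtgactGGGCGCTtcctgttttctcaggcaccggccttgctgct
Spi1, intron, 19.2 kb into the gene, chr2:91101501-91101680: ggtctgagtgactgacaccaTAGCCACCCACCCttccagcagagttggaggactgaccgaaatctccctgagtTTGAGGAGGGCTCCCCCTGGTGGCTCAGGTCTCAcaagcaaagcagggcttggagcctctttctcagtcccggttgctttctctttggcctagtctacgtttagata
Spi1, exon, 32.9 kb into the gene, chr2:91115161-91115360: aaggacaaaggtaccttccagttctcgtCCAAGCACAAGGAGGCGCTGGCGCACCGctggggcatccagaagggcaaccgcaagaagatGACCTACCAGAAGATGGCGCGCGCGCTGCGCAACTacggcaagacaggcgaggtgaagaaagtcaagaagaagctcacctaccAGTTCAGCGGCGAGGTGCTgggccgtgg
Irf8, upstream promoter site, chr8:120735879-120736075: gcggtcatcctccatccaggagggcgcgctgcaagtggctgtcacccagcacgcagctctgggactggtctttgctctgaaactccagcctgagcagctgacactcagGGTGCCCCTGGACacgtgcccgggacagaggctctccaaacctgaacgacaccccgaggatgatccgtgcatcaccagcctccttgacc
Irf8, 4.14 kb upstream, chr8:120732118-120732320: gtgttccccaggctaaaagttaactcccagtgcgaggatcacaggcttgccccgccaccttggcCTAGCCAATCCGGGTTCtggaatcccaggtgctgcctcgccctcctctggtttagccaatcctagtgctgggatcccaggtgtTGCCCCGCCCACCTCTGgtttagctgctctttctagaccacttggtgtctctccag
Laptm5, 13 kb upstream, chr4:130899981-130900200: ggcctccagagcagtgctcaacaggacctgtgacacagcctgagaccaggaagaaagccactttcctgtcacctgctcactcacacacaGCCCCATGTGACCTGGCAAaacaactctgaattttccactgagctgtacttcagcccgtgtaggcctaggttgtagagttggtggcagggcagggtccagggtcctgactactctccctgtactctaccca

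Promoter peaks were scarce at these genes. Of the 10, 2 had a promoter peak in both libraries (Spi1 and Irf8), where 60.7% of all protein-coding genes had one. In replicate 2 the count was the same 2, against 60.9% of all genes, and in replicate 1 it was 4, against 66.9%, with Cx3cr1 and Laptm5 added. Weak promoter peaks of replicate 1 were also found at Adgre1, Ptprc and Cd68, while Csf1r, Itgam and C1qa had no promoter peak in either set. Counted in this way, in at least 1 library of the wider set, 7 of the 10 genes had a promoter peak, against 70.9% of all genes. A promoter footprint found in both libraries was seen at Spi1 and Irf8 alone, against 59% of all genes. At the promoters of Csf1r and Itgam no interval passed a false discovery rate of 0.05, and at C1qa the lowest rate was 0.0425, in replicate 1. An interval below 0.05 was present in both libraries at 2 of the promoters, Spi1 and Irf8, against 65.6% of all genes. The wider set left the count in both libraries at 2, against 64.9% of all genes.

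The genes differed in promoter CpG content, which moved with promoter peaks across the genome, from 8.98% of genes in the lowest of 10 bins of the CpG ratio to 93.9% in the highest. Spi1 and Adgre1 lay in the 2nd bin from the lowest, where 18.8% of genes had a promoter peak in both libraries. Csf1r, Cx3cr1, Ptprc, Itgam, Laptm5 and Cd68 lay in the 3rd (29.3% of genes) and C1qa in the 4th (42.6%). Irf8 was in the 8th, where 90.6% of genes had a shared promoter peak. The part of CpG content in the members' count was not tested.

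**Figure D1:**
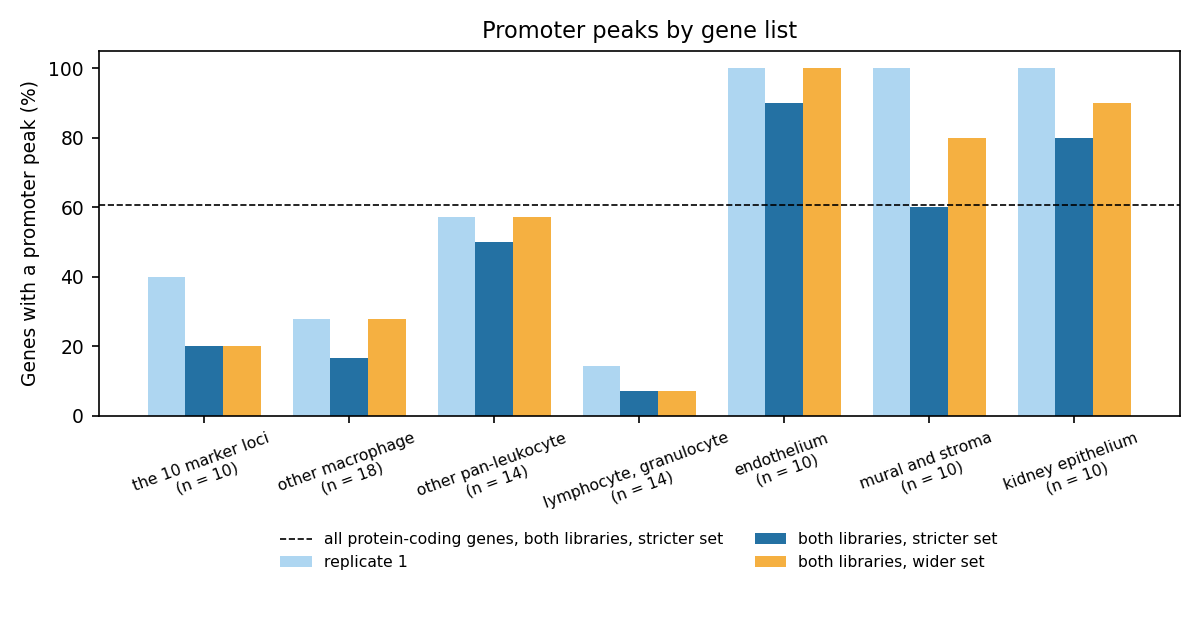
Share of genes (%) with a promoter peak for the 10 marker loci and 6 other gene lists: replicate 1 (light blue), both libraries in the stricter set (dark blue) and both libraries in the wider set (orange). The dashed line is the 60.7% of all protein-coding genes with a promoter peak in both libraries. The marker loci (2 of 10) and the other macrophage genes (3 of 18) lie below it, and the endothelial (9 of 10) and kidney epithelial genes (8 of 10) above it.

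Over the 10 windows the stricter set gave 86 sites, all of them found in replicate 1. Of these, 47 (54.7%) were also found in replicate 2 and 39 were found in replicate 1 alone. The shared share was close to the 52.6% of all replicate 1 sites. The shared sites comprised 5 at a start of the named gene itself, 4 of them at Irf8 and 1 at Spi1, 13 at the start of a neighbouring gene, and 29 distal sites (61.7%, against 64.6% of all shared sites). At least 1 shared site lay in 7 of the 10 windows, against 79.1% of all genes, and at least 1 shared distal site in 6, against 62.9%. The median window held 4 shared sites, where the median over all genes was 3 (interquartile range 1 to 6).

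**Figure D2:**
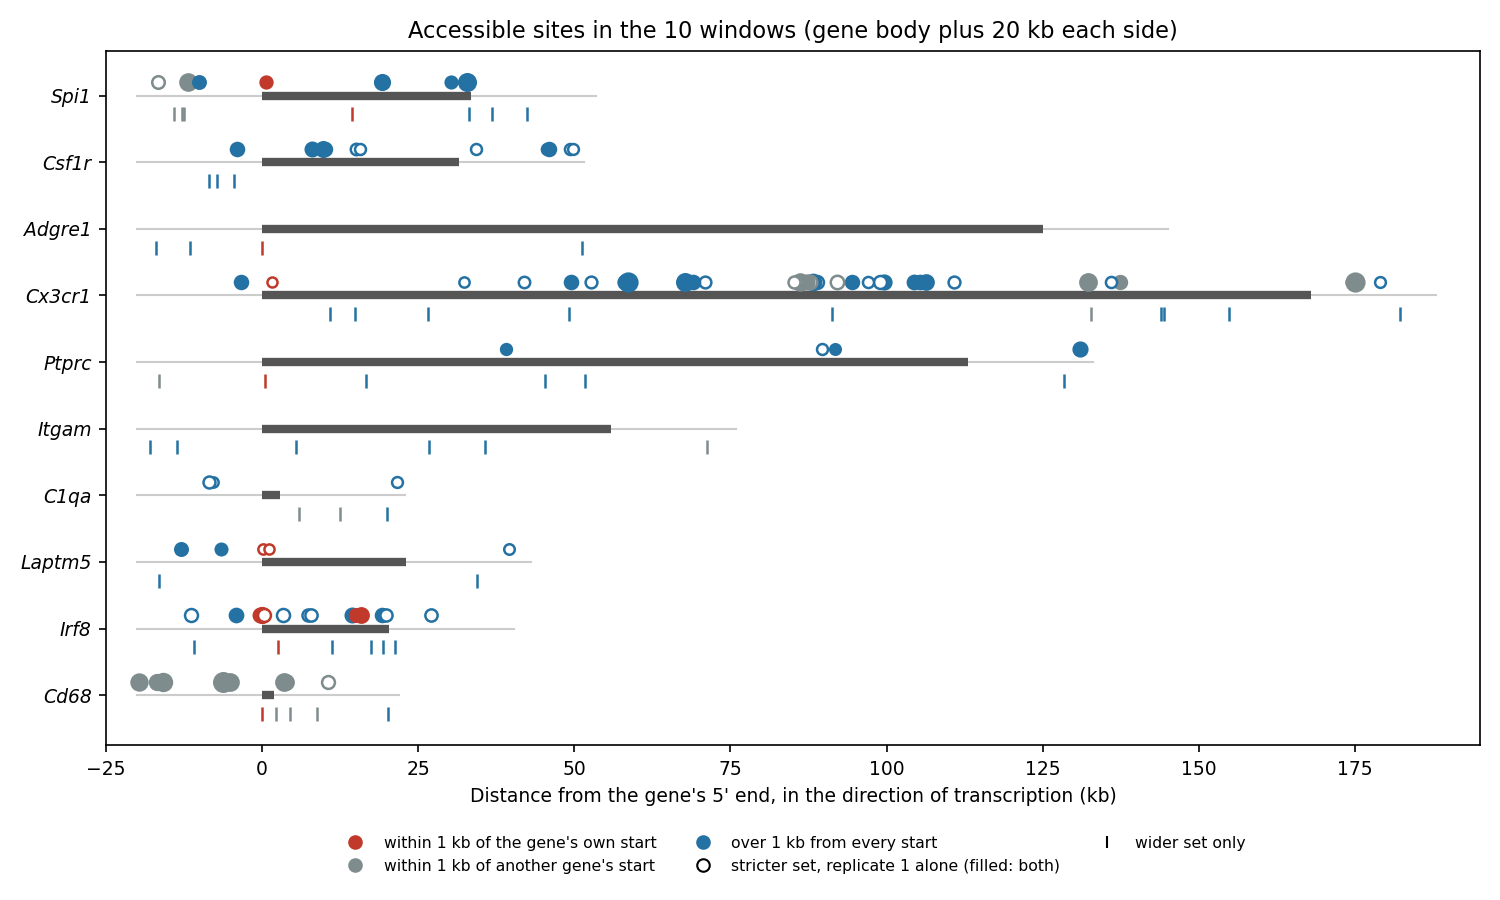
Map of all sites in the 10 windows, by distance (kb) from the gene's 5′ end in the direction of transcription. Dark bars are gene bodies, circles are sites of the stricter set (filled where found in both libraries, open in replicate 1 alone, larger for greater height) and ticks are sites of the wider set alone, coloured by their place relative to start sites. Adgre1 and Itgam have ticks only, and the stricter sites around Cd68 lie at the starts of other genes.

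Spi1, the gene of PU.1 itself (chr2:91082390-91115756, plus strand), had 6 shared sites of 7 in replicate 1. Its promoter peak was low, with heights of 1.27 and 0.886, and narrow, at chr2:91083034-91083128. The site lay in an intron, 673 bp past the nearest annotated start in replicate 2 and 683 bp in replicate 1, and held 1 footprint found in both libraries. The highest shared sites of the window were elsewhere. A distal site at chr2:91115161-91115360, in an exon near the 3′ end, had as its nearest start that of Mybpc3, 2883 bp away. The site had heights of 12.4 and 5.93, which placed it at percentiles 99.2 and 97.1 of all shared distal sites. Its 3 matched footprints are in capitals above, and its 200 bases held letters of CTCF, the factor that organises chromatin loops (CCA and AG, then GGC, with any 2 bases between each). An intronic site 19.2 kb into the gene had heights of 5.1 and 2.03 (percentiles 89.2 and 73.9). Another at 30.3 kb, also nearest to a start of Mybpc3 (5443 bp), had 1.15 and 1.17 (percentiles 18.3 and 45.4). Upstream, a distal site at 10.1 kb had heights of 1.76 and 1.17 and was nearest to Slc39a13, a zinc transporter gene whose own start carried a site of 10.3 and 9.1. None of the 4 shared distal sites held GAGGAAGT.

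Irf8 (chr8:120736358-120756694, plus strand) encodes the interferon regulatory factor that directs monocyte, macrophage and dendritic cell development, often on DNA together with PU.1. It had the highest promoter peak of the 10 genes. The site at its 5′ end reached heights of 5.34 and 3.56, and the adjoining upstream promoter site 2.96 and 1.86. The lowest false discovery rate at the promoter was 1.17e-23 in replicate 1 and 9.78e-13 in replicate 2. A further pair of sites lay at alternative starts, 15.1 kb (2.04 and 1.15) and 15.9 kb (4.39 and 2.88) into the gene. Distal shared sites lay 4.14 kb upstream (2.62 and 2.04), 14.4 kb into the gene (3.07 and 1.92) and 19.1 kb into it, in a UTR (2.2 and 2.44). The site at 14.4 kb was the only shared distal site of the 29 with the PU.1 letters, which lay outside its footprints. Of the 14 sites of replicate 1 in this window, 7 were not in replicate 2. Among those 7, the site 27.1 kb past the start (height 1.62) held the PU.1 letters within a footprint, the only such match in these windows.

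Csf1r (chr18:61100598-61132149, plus strand) is the defining growth factor receptor of macrophages. Its annotated starts had no peak, but its body and upstream flank held 4 of the 5 shared sites of the window, all distal. The highest, 9.69 kb past the 5′ end in an exon, had heights of 4.79 and 4.36 (percentiles 87.5 and 93.8) and 4 matched footprints. Intronic sites beside it had 2.71 and 3.02 at 8 kb, and 2.23 and 1.59 at 10 kb. The upstream site, 4.01 kb before the gene, had 2.41 and 0.876, a percentile of 57.6 in replicate 1 and of 26.7 in replicate 2. The fifth site, 46 kb past the 5′ end and annotated as UTR, had 2.32 and 1.38. A weak site of replicate 1, 8.49 kb upstream (height 0.52), had the PU.1 letters in its 200 bases. Another weak site, 7.26 kb upstream and present in both libraries (0.52 and 0.601), had the IRF letters in its 200 bases, GAAA repeated with any 2 bases between. Neither match was wholly inside its site.

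Cx3cr1 encodes the fractalkine receptor of monocytes and many tissue macrophages. Its GENCODE body spans 168 kb (chr9:119901616-120069879, minus strand), where RefSeq gives 19.6 kb, and the longer span covers starts of Gorasp1, Ttc21a, Csrnp1 and Xirp1. The window held 34 sites in replicate 1 and 18 shared sites, of which 6 were at starts of other genes and 12 were distal. Of those 12, only the site 3.46 kb upstream of the 5′ end had a Cx3cr1 start as its nearest, with heights of 2.37 and 1.43 (percentiles 56.6 and 57.1) and 1 matched footprint. The highest distal site of all 10 windows, 22.6 and 14.5, lay 58.6 kb into this span at chr9:120011141-120011400, in an exon 1466 bp from a start of Gm49427. At the start of Cx3cr1 there was a low peak of replicate 1 alone (0.353). With RefSeq bounds for all genes, a change chosen after the data were seen, the 10 windows together held 30 shared and 18 distal shared sites in place of 47 and 29.

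Adgre1 (chr17:57358691-57483527, plus strand) encodes F4/80, the surface protein by which kidney macrophages are commonly sorted. Its window of 165 kb held no site of the stricter set in either library and no footprint. In the wider set it had 4 sites, all of replicate 1, with heights from 0.167 to 0.334. The highest of them overlapped the 5′ end, where the lowest false discovery rate was 0.00196. Itgam (chr7:128062640-128118491, plus strand) encodes CD11b, the alpha chain of a complement receptor of myeloid cells. Its window also held no site of the stricter set, and none of its 6 weak sites was found in both libraries. Their heights ran from 0.176 to 0.483, and 1 of them, at height 0.326, was of replicate 2 alone.

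Ptprc (chr1:138062861-138175708, minus strand) encodes CD45, the phosphatase carried by all nucleated blood cells. Within its body it had 2 shared sites, both intronic and both among the lowest shared distal sites of the genome. Heights were 0.659 and 0.581 at 39.1 kb (percentiles 3.82 and 5.88) and 0.547 and 0.53 at 91.8 kb (percentiles 1.94 and 3.11). Neither held a matched footprint. The site at 39.1 kb held TGTGGTT, the letters of RUNX factors, and that at 91.8 kb held letters of AP-1 (TGANTCA) and of HNF1, a kidney epithelial factor (GTTAAT and ATT with any base between). A higher site (3.28 and 1.47) lay in the flank past the 3′ end. The start had a weak peak of replicate 1 (0.353, false discovery rate 0.0166).

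C1qa (chr4:136895917-136898803, minus strand) encodes a chain of the complement protein C1q, which macrophages of many tissues make in quantity. Its window held 3 sites of replicate 1 and no shared site. The site 8.46 kb upstream had a height of 1.37 and that at 7.91 kb one of 0.464. The remaining site, of height 0.696, lay on the far side of C1qb. The composite PU.1 and IRF letters were in the 200 bases around this site but outside the site itself. The neighbouring genes of the other C1q chains had weak peaks at their starts, 0.418 and 0.469 at C1qb and 0.483 in replicate 1 at C1qc. Laptm5 (chr4:130913125-130936141, plus strand) encodes a lysosomal membrane protein of blood cells. Both shared sites of its window lay upstream, at 13 kb (1.8 and 1.26, percentiles 40.8 and 50) and 6.61 kb (1.02 and 1.08, percentiles 13.9 and 40.1), with 1 matched footprint each. Near its starts replicate 1 alone had a site of height 0.445 and another of 0.39.

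Cd68 (chr11:69664213-69666153, minus strand) encodes a lysosomal glycoprotein of macrophages and is 1.94 kb long. All 6 shared sites of its window lay within 1 kb of starts of other genes. The highest site of the 10 windows, 32.6 and 31.9, was at Eif4a1, a translation initiation helicase gene. A site of 10.2 and 11 at Mpdu1, a gene of sugar chain synthesis, held PU.1 letters outside its footprints. The start of Cd68 itself had only a weak peak of replicate 1 (0.844, false discovery rate 0.0039). That weak site held letters of AP-1 and C/EBP (TTGCNNAA), and the composite of PU.1 with IRF lay in its 200 bases but not wholly inside it.

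**Figure D3:**
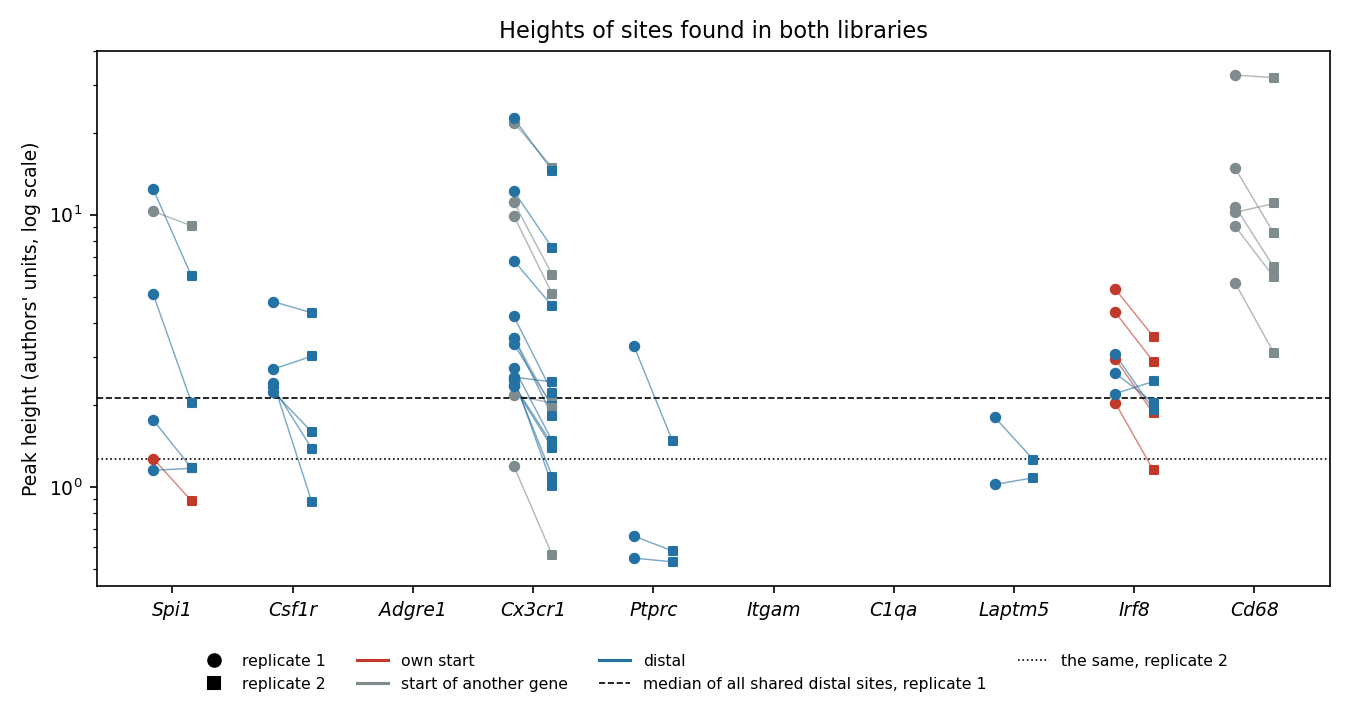
Heights (authors' units, log scale) of the shared sites in each window, replicate 1 (circles) joined to replicate 2 (squares) and coloured by place. Dashed and dotted lines give the median height of all shared distal sites, 2.12 in replicate 1 and 1.27 in replicate 2. The intronic Ptprc sites are among the lowest, and Adgre1, Itgam and C1qa have no shared site.

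As a group the shared distal sites were not low. The median height of the 29 was 2.53 in replicate 1 and 1.59 in replicate 2, where all shared distal sites of the genome had medians of 2.12 and 1.27. Their median percentile was 60.3 in replicate 1 and 62.8 in replicate 2. Without the 12 in the Cx3cr1 window, the median percentile of the other 17 was 55.3 and 58.7. Below the genome median were 6 of the 29 in replicate 1 and 8 in replicate 2. Of the 29, 13 were nearest to a start of the named gene and 16 were nearest to a start of another gene.

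Footprints found in both libraries numbered 122 over the windows, with 48 in the Cx3cr1 window, 27 around Cd68, and 17 each at Spi1 and Irf8. Csf1r had 9, Ptprc and Laptm5 had 2 each, and Adgre1, Itgam and C1qa had none. A matched footprint lay in 25 of the 29 shared distal sites, against 76.3% of all such sites. The bases with a false discovery rate below 0.05 ran from 2.49 per kb at Adgre1 to 117 per kb around Cd68 in replicate 1, with 29.3 per kb at C1qa. In replicate 2 they ran from 0 per kb at Adgre1 to 88.8 per kb around Cd68. Replicate 2 had fewer bases than replicate 1 in every window.

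Matches to 9 motifs were sought, reading both strands, in the 200 bases centred on each site. A match describes the reference sequence, and motifs can overlap one another, the PU.1 letters and the composite sharing GGAA. In the shared distal sites PU.1 letters were about as common as elsewhere, in 1 of 29 (3.45%, against 2.53% of 42080). Neither the composite nor the IRF letters occurred in any of the 29, against 1.93% and 2.04% of all shared distal sites. CTCF letters were in 7 of the 29 (24.1%, against 9.99%), 4 of them in the Cx3cr1 window. RUNX letters were in 2 (6.9%, against 4.25%), C/EBP letters in 3 (10.3%, against 9.43%) and AP-1 letters in 3 (10.3%, against 8.94%). Those of HNF4, a factor of the proximal tubule (CAAAGTCCA), were in none, against 1.76%, and those of HNF1 in 1 (3.45%, against 1.28%). The shorter PU.1 letters GAGGAA were in 5 (17.2%, against 22.4%). In shared distal sites around endothelial genes GAGGAA was in 28 of 68 (41.2%). The share was 27.6% around kidney epithelial genes, 18.5% around mural and stromal genes and 18.2% around the other leukocyte genes. Among 27 distal sites of replicate 1 alone, GAGGAAGT was in 1 (3.7%, against 2.24%).

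The windows held 52 weak sites, 39 of replicate 1 alone, 7 of replicate 2 alone and 6 found in both libraries, of which 2 were distal. The 200 bases held PU.1 letters at 7 of them (13.5%), against 2.53% of the 59625 weak sites of the genome. The letters were wholly inside the site itself at 4 (7.69%, against 1.82%), of which 3 were in the Itgam window and 1 in that of Ptprc. Of the 7 with the letters in the 200 bases, 4 were in the Itgam window and 1 each in those of Csf1r, Cx3cr1 and Ptprc, so they came from 4 loci. The fourth at Itgam lay near a start of Itgax, the gene of CD11c (height 0.176). Without the Itgam window the share over the 200 bases was 6.52%. With replicate 1 left out it was 9.38%, and with the shorter letters GAGGAA it was 26.9%, against 21.5% of all weak sites. Of the weak sites with PU.1 letters, only that near Gm28556 in the Ptprc window was found in both libraries (0.223 and 0.469). Of the 7, 6 held no footprint of either library, and in the remaining 1, upstream of Itgam, the letters lay outside it. These shares were computed after the sites had been seen, and no test of them was made.

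C/EBP and AP-1 letters were also more frequent in these weak sites, in 12 (23.1%, against 9.63%) and 8 (15.4%, against 8.44%). RUNX letters were in 4 (7.69%, against 5.1%) and CTCF letters in 3 (5.77%, against 4.51%). The composite and the IRF letters were in 1 each (1.92%, against 2.14% and 2.2%), and HNF1 and HNF4 letters in none, against 0.738% and 1.03%. The median GC content of the weak sites was 51.5%, against 49.5% over the genome, and its part in these shares was not tested. In weak sites around 46 other leukocyte genes, PU.1 letters were in 10 of 140 (7.14%), while C/EBP letters were in 9 (6.43%) and AP-1 letters in 10 (7.14%). Of these PU.1 matches, 3 were in the window of Lcp1. AP-1 letters were in 6 of 48 weak sites (12.5%) around kidney epithelial genes, 2 of 29 (6.9%) around mural and stromal genes and 1 of 52 (1.92%) around endothelial genes. PU.1 letters were in 1 of 52 weak sites (1.92%) around endothelial genes, 2 of 29 (6.9%) around mural and stromal genes and 1 of 48 (2.08%) around kidney epithelial genes. Windows of different lists can overlap, and sites of the marker loci were not taken out of the other lists. Of the 2 mural and stromal matches, 1 was in the window of Pdgfrb, whose start lies upstream of Csf1r on chr18. Whether that match was the weak site upstream of Csf1r was not checked. With the PU.1 letters wholly inside the site the share was 5.71% around the other leukocyte genes, against 1.82% of all weak sites. By list it was 8.7% around the 14 genes common to leukocytes, 3.85% around other macrophage genes and 0% around lymphocyte and granulocyte genes. Of the 6 matches around genes common to leukocytes, 3 were in the window of Lcp1. In shared distal sites PU.1 letters were in 6 of 88 (6.82%) around all other leukocyte genes together, against 2.53% of all such sites. The other macrophage genes had 4 of 30 (13.3%), genes common to leukocytes 2 of 43 (4.65%) and lymphocyte and granulocyte genes 0 of 15. Kidney epithelial genes had 3 of 29 (10.3%), endothelial genes 2 of 68 (2.94%) and mural and stromal genes 1 of 27 (3.7%).

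**Figure D4:**
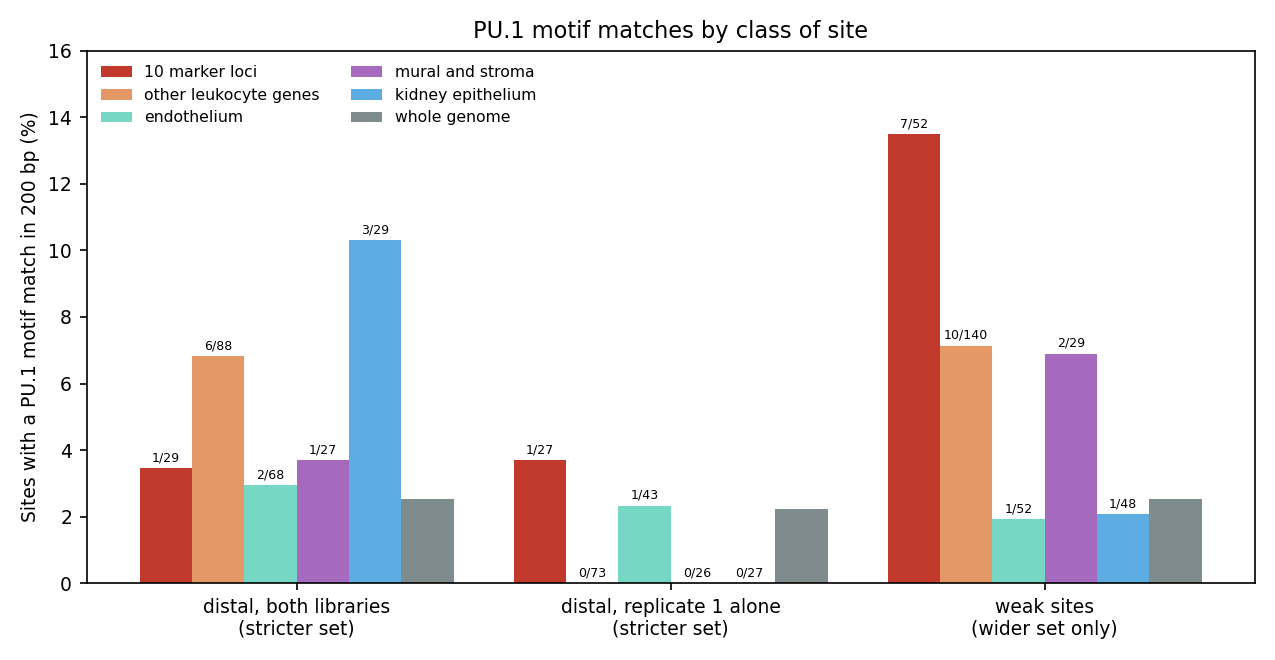
Share of sites (%) with the PU.1 letters GAGGAAGT in 200 bases, by class of site, for the 10 marker loci, other gene lists and the whole genome, with matches and sites counted above the bars. Weak sites of the marker loci stand at 7 of 52, counting letters inside the site and beside it, and shared distal sites of the marker loci (1 of 29) lie below those of kidney epithelial genes (3 of 29).

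Other genes of the same cells gave a similar picture at promoters, with exceptions. Of 46 further leukocyte genes, 11 (23.9%) had a promoter peak in both libraries, against 60.7% of all protein-coding genes. In replicate 1 the count was 15, against 66.9% of all genes. Macrophage genes had 3 of 18 (16.7%). Among these were Mertk, a receptor for dying cells (17 and 11.8), and Cd14, the endotoxin co-receptor (1.14 and 0.907). Mertk lay in the 6th CpG bin and Cd14 in the 4th.

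Genes common to leukocytes had 7 of 14 (50%), nearer to the 60.7% of all genes. Runx1, a blood transcription factor, had heights of 4.61 and 3.82. Coro1a and Lcp1, which bind actin, had 5.12 and 2.35, and 3 and 2.18. Arhgdib, a GTPase regulator of blood cells, had 1.79 and 1.94. Inpp5d, the phosphatase SHIP1, had 1.4 and 0.968, Hcls1, a substrate of Lyn kinase, 0.807 and 0.744, and Ikzf1, the lymphoid factor Ikaros, 0.687 and 0.54. Of 14 lymphocyte and granulocyte genes, Lck, a kinase of T cells, was the only one with a promoter peak in both libraries (8.92 and 4.83). Cd3e, Cd4, Cd8a and Ms4a1, which mark T and B cells, had no shared promoter peak. Mural and stromal genes had 6 of 10, close to the share of all genes. The lists had median CpG bins from 2.5 to 4. The median CpG ratio was 0.324 for the endothelial genes (9 of 10, median bin 4) and 0.212 for the 10 marker loci (median bin 3), and its part in the difference between lists was not tested.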

How the data were processed

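DNase-seq of kidney was deposited for 2 libraries of the same group. According to the deposited read-me files, the authors made peaks, footprints and rates from filtered mm10 alignments, library by library. Names and versions of the aligner and callers were not given in the sources used here, and depth is unknown. The authors' peak files hold a signal per peak (the height), in whole multiples of 1 step per library and in unknown units. The authors' false discovery rates (adjusted p-values) are deposited per interval and are all below 0.05. In the deposited footprint files every interval carries the value 0.01, so footprints had no score.

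Gene bodies and starts came from GENCODE M21, and sequences and alternative gene bounds from RefSeq GRCm38.p6. Peaks were joined with bedtools 2.31.1 and Python 3.11.15 (numpy 2.4.6, pysam 0.24.0), with an overlap of 1 base for shared sites. As a check of the code alone, motif search and site merging were run on simulated data with planted letters and overlaps, and all were recovered. Height percentiles were taken over all shared distal sites of a library. With 1 group and 2 libraries no test was made; values are given per library. The members and gene lists were chosen with earlier results of these data known. All 10 members are named, with their highest shared and distal sites, their shared sites within the gene body and, from other lists, genes with a promoter peak in both libraries, 1 of which is not reported here. Genes outside this rule, such as Itgax and the kidney epithelial examples, were named after their values were seen. Alternatives covered the peak set, height filter, overlap, flank, start window, transcripts, searched length and each library in turn.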

Additional observations from a re-analysis of the deposited data

How the results depend on the processing

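No paired analysis was possible because there was 1 group. The results are counts and shares, so a change of direction was not assessed. With 50 kb flanks the PU.1 share of shared distal sites fell from 3.45% to 1.79%, below the 2.53% of all such sites. Depth was not given, so sites missing from replicate 2 or from both libraries may lie below detection. Members with a promoter peak in both libraries numbered 2, fell to 1 with the stronger 50% of peaks (52.8% of all genes) and to 1 with starts taken at 500 bp (Irf8 in both cases), and were 2 to 4 with either library left out. Shared sites in the windows were 72 in the wider set, 28 without flanks, 85 with 50 kb flanks, 30 with RefSeq bounds and 47 to 86 with a library left out. The median per window was 6, 1, 9, 2.5 and 4 to 6 in the same order, and 2 with the stronger peaks. Shared distal sites were 44 (wider), 17 (stronger), 56 (50 kb), 18 (RefSeq) and 29 to 56. The share at starts of other genes, 27.7%, was 30.6% (wider), 37.5% (stronger), 14.3% (no flank), 44.7% (2500 bp starts), 23.3% (RefSeq) and 24.4% to 27.7%. The median of each site's percentile averaged over libraries, 66.1, was 71 without flanks, 57.8 (50 kb), 61.1 (2500 bp), 57.4 (RefSeq) and 64.2 to 69. Matched footprints were 64, 203 and 75 without flanks, at 50 kb and with RefSeq bounds, and 184 to 324 in single libraries, where no match is needed. The PU.1 share of shared distal sites was 4.55% (wider), 5.88% (stronger), 4.76% (no flank), 1.79% (50 kb), 5.56% (RefSeq) and 3.45% to 3.57%. In weak sites it was 9.72% (50 kb), 26.9% (short letters), 6.52% (without Itgam), 7.69% (letters wholly inside the site) and 9.38% to 13.3% with a library left out. The other leukocyte genes with promoter peaks were 7 with the stronger peaks and 11 to 15 with a library left out. RefSeq bounds and all settings for weak sites were chosen after seeing the data. Except where its construction shows it, the cause of a change was not tested.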
